A study of Oryza sativa with 2 samples.

Results

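Of the 26715 loci in the expression table, 50 were taken as nuclear loci of photosystem I (PSI) or II (PSII) beyond the main antenna. They were selected by the wording of the deposited annotation (photosystem, chlorophyll A-B binding, oxygen-evolving or PsbP), without regard to their level. They are called photosystem loci or photosystem subunits below. The annotation of 9 of them, chlorophyll A-B binding family protein, names no photosystem. Loci worded as light-harvesting or antenna proteins were left out, as were copies of the plastid-encoded reaction centre genes and a plastid-derived stretch of chromosome 10. The 50 loci lie on 10 chromosomes by their locus numbers. The files hold no coordinates, and the genome build is not given in the sources used here. The annotation uses the names of Arabidopsis genes, and the roles stated below are those known from Arabidopsis or from photosystems in general.

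Leaf RNA was sequenced from 1 library of the mutant and 1 library of the wild-type *japonica* cultivar Zhonghua11. The mutant is a *White Leaf and Panicle 2* line headed *wlp2s* in the table, isolated after ethyl methanesulfonate (EMS) mutagenesis of Zhonghua11. Such a line can carry further mutations, and whether it had been backcrossed is not given in the sources used here. Both genotypes were raised as seedlings in a chamber at a constant 32 °C under cycles of 12 h light and 12 h dark at 300 μmol m−2 s−1. The age of the sampled leaves is not given for these libraries. With 1 library per genotype no difference has a replicate check and no p-value is given.

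PSII takes electrons from water on the lumenal side of the thylakoid, and PSI passes them on to ferredoxin on the stromal side. The reaction centre proteins are made in the plastid, whereas the nuclear genome encodes many of the other subunits, which are imported and assembled around them. WLP2 is a fructokinase-like protein associated with the plastid-encoded RNA polymerase, which transcribes the reaction centre genes. The comparison therefore asks how the nuclear transcripts for the partners of those proteins stood in the mutant at high temperature.

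The mutant library held 9327778 estimated counts and the wild-type library 9080323. *WLP2* (LOC_Os01g63220) itself was at 9.10 RPKM in the mutant and 6.61 RPKM in wild-type, with 178 counts in the mutant and 126 in wild-type, a ratio of 1.38 (95% counting interval 1.09 to 1.74). The lesion is a base substitution, which need not change this level. Which library is the mutant was taken from the labels and was not checked in another way. RPKM is the read count scaled by transcript length and by library total. The 7 loci of leaf mesophyll markers (the small subunit of Rubisco, phosphoribulokinase, a carbonic anhydrase and glyceraldehyde-3-phosphate dehydrogenase B) summed to 13083 RPKM in the mutant and 12391 RPKM in wild-type, so that both libraries were rich in leaf transcripts. The 23 loci of 3-ketoacyl-CoA synthases, used as epidermis markers, summed to 167 RPKM in the mutant and 137 RPKM in wild-type. The only locus found for dividing cells, a B-type cyclin, had 0 counts in the mutant and 2 in wild-type. The part of these markers in the results was not tested, and in whole leaves fewer cells of a type and less RNA per cell cannot be told apart.

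Transcripts of the photosystem subunits stood at nearly the same level in both genotypes. Together the 50 loci took 1.68% of all counts in the mutant and 1.66% in wild-type, and their summed count in the mutant was 1.01 times that of wild-type after scaling to library totals (95% interval 1.00 to 1.02). Such ratios carry an exact binomial (Clopper-Pearson) interval, which covers counting error only. Within that even total, most PSI subunits were slightly lower in the mutant, the large oxygen-evolving proteins of PSII were slightly higher, and a small set of chlorophyll A-B binding loci annotated for response to stress was 3.21-fold higher. The plot of levels shows the loci along the line of equality, with that set standing off it.

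Of the 50 loci, 48 passed the filter used for differences, which asked for an RPKM of 1 or more in either library. Differences were taken as log2(RPKM + 1) of the mutant minus that of wild-type, a scale that understates the differences of weakly expressed loci. The median over the 48 loci was 0.10, against 0.00 over all 18639 loci past the filter, and 32 of the 48 lay above 0, against 50.3% of all loci. A size rule took differences of 1 or more, up or down. It was met by 3 loci (2.8% of all loci met it in either direction), all of them higher in the mutant, where 1.79% of all loci met it, and by 0 loci that were lower, where 1.01% did. With the threshold lowered to 0.5, 6 of the 48 were counted, beside 14.8% of all loci.

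Counting error was small beside many of these differences because the loci are abundant. The counting interval of the ratio lay wholly above 1 at 15 of the 48 loci and wholly below 1 at 10, where 16.1% and 15.4% of all loci had such intervals. This is a statement on these libraries and not on the genotypes. The 21 photosystem loci with RPKM values of 100 or more in either library all had differences between -0.45 and 0.19, with a median of 0.01. Among all 886 loci at that level the median was 0.03, and 5% of them were below -0.52 and 5% were above 0.59.

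**Figure D1:**
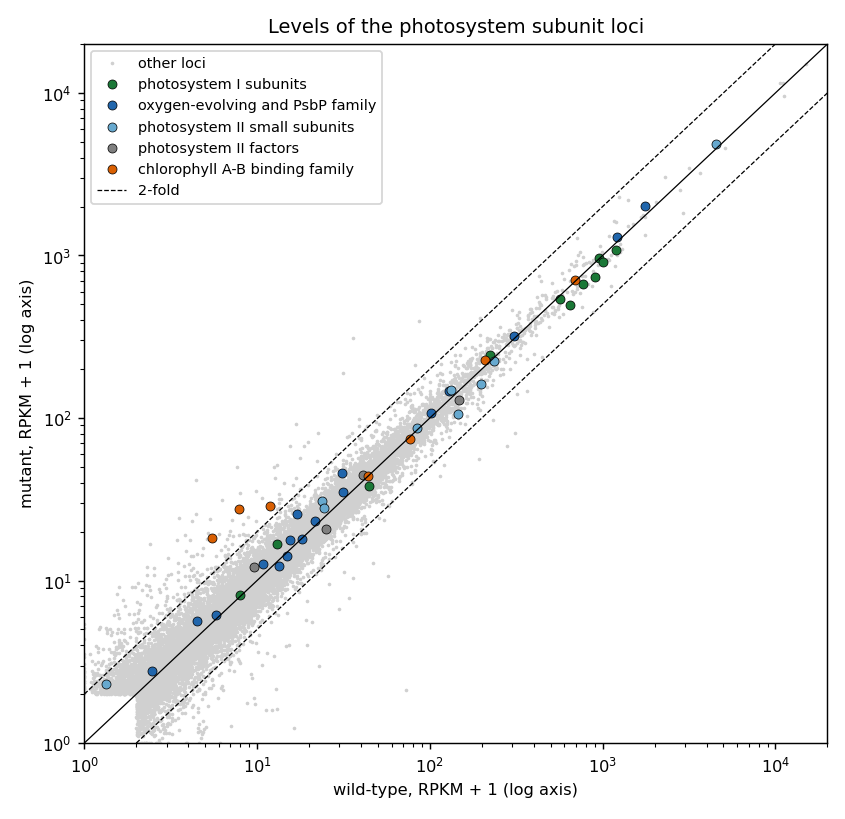
Level of each locus in the mutant (vertical axis, RPKM + 1, log scale) against wild-type (horizontal axis, RPKM + 1, log scale) for the 48 photosystem subunit loci past the filter, coloured by role, over all other loci past the filter in grey. The solid line marks equal levels and the dashed lines a 2-fold ratio of RPKM + 1, and 3 chlorophyll A-B binding loci lie above the upper dashed line.

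The order of the subunits by level was much the same in both libraries. The Spearman correlation of RPKM between the libraries over the 48 loci was 0.975, which describes loci of 1 pair of libraries and is not a test. PsbR (LOC_Os08g10020) was the most abundant in both, with 4881 RPKM in the mutant and 4536 RPKM in wild-type. PsbO (LOC_Os01g31690) and PsbP (LOC_Os07g04840) came next in both libraries, followed by the PSI-O locus. Of the 48 loci, 11 moved by 3 ranks or more, and the largest move was of 11 ranks, by LOC_Os07g08160 of the stress-annotated set.

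The 11 loci of PSI subunits had a median difference of -0.14, with 4 above 0 and 7 below, and none met the size rule. Their summed count in the mutant was 0.895 times that of wild-type (0.884 to 0.905), and it was 0.911 times without PSI-F, the locus with the most counts. Of the 8 loci other than those annotated as the P subunit, 6 were lower, and the counting interval of each of the 6 excluded equal levels. Over all loci past the filter, 15.4% had an interval below 1. The 6 loci are abundant, so small differences suffice: PSI-E, with 4212 counts in the mutant and 4308 in wild-type, excluded equal levels at a ratio of 0.952.

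PSI-L (LOC_Os12g23200), which in Arabidopsis helps to dock mobile light-harvesting complexes at PSI, had the most negative PSI difference, -0.38. It was at 497 RPKM in the mutant and 645 RPKM in wild-type, 0.771 times the wild-type count (0.744 to 0.798). PSI-F (LOC_Os03g56670), the subunit at which plastocyanin docks on the lumenal side, was at 740 RPKM in the mutant and 908 RPKM in wild-type, or 0.815 times (0.791 to 0.840). PSI-D (LOC_Os08g44680), part of the stromal ridge where ferredoxin binds, was at 668 RPKM in the mutant and 773 RPKM in wild-type, or 0.864 times (0.835 to 0.894). Its partner on that ridge, PSI-E (LOC_Os07g25430), was closer to equal, with 536 RPKM in the mutant and 563 RPKM in wild-type.

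PSI-N (LOC_Os12g08770), an extrinsic lumenal protein that assists electron transfer from plastocyanin, was at 910 RPKM in the mutant and 1010.2 RPKM in wild-type. PSI-O (LOC_Os04g33830), a small membrane subunit next to PSI-L, was at 1080 RPKM in the mutant and 1190 RPKM in wild-type, a ratio of 0.908 (0.880 to 0.936). The loci for the PSI-G and PSI-K pair, which in Arabidopsis flank the reaction centre and bind its antenna, did not share this direction. PSI-K (LOC_Os07g05480) was at 962 RPKM in the mutant and 955 RPKM in wild-type, and its interval of 0.975 to 1.04 included equal levels. PSI-G (LOC_Os09g30340) was at 243 RPKM in the mutant and 223 RPKM in wild-type, 1.09-fold higher (1.04 to 1.15).

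The 3 loci annotated as the PSI P subunit were weaker and went different ways. In Arabidopsis this protein is now known to bend the thylakoid membrane at the grana margins. LOC_Os07g28610 was at 37.0 RPKM in the mutant and 43.3 RPKM in wild-type, and LOC_Os09g07630 was at 7.11 RPKM in the mutant and 7.01 RPKM in wild-type. The counts of this pair are fractions, because the authors' counting divided reads. They add up to whole numbers, 376 in the mutant and 433 in wild-type. The loci may therefore share reads and are taken as 1 result (ratio 0.845, 0.734 to 0.973). LOC_Os10g39150, with whole counts, was at 143 counts in the mutant and 105 counts in wild-type, or 1.33-fold higher (1.02 to 1.72).

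The oxygen-evolving proteins and their PsbP relatives, 17 loci in all, had a median difference of 0.15, with 14 above 0 and 3 below. The median was 0.10 over the 9 loci with whole counts. Their summed count in the mutant was 1.12 times that of wild-type (1.10 to 1.13), and 1.09 times without PsbO, which holds most of the counts. This interval lies apart from that of the PSI subunits on either side of 1, which describes these libraries, and the difference between the groups has no test over samples. None of the 17 met the size rule.

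PsbO, PsbP and PsbQ sit on the lumenal face of PSII and shield the manganese cluster that splits water. PsbO, the protein that stabilizes this cluster, had the largest ratio of the 3, with 2000.4 RPKM in the mutant and 1759 RPKM in wild-type, 1.14-fold higher (1.12 to 1.16). PsbP (annotated as subunit P-1), which retains calcium and chloride, was at 1304 RPKM in the mutant and 1211 RPKM in wild-type, or 1.08-fold higher (1.05 to 1.11). PsbQ (LOC_Os07g36080, annotated as subunit QA) was at 316 RPKM in the mutant and 305 RPKM in wild-type, with an interval of 0.982 to 1.09 that included equal levels. All 3 were thus at or slightly above wild-type, and none was lower.

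The other 14 loci of this group are members of the PsbP family, several of which act in Arabidopsis as assembly factors rather than as parts of the oxygen-evolving complex. They summed to 459 RPKM in the mutant and 403 RPKM in wild-type, far below PsbO alone. LOC_Os12g08830 was the most abundant, at 145 RPKM in the mutant and 128 RPKM in wild-type (1.13-fold, 1.05 to 1.21). The lowest ratios were those of LOC_Os05g33300, with 109 counts in the mutant and 117 in wild-type, and LOC_Os01g70820, with 105 counts in the mutant and 108 in wild-type, and both intervals included equal levels.

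The largest differences in the family were those of LOC_Os12g37710 and LOC_Os10g32400, both with divided reads. LOC_Os12g37710 was at 24.6 RPKM in the mutant and 16.0 RPKM in wild-type, 1.54-fold higher (1.30 to 1.82). LOC_Os10g32400, 1 of the 2 loci annotated as PsbP-like protein 1, was at 44.7 RPKM in the mutant and 29.9 RPKM in wild-type, 1.50-fold higher (1.28 to 1.75). PsbP-like protein 1 is needed in Arabidopsis for the repair of photodamaged PSII. The other locus of that name, LOC_Os08g25900, was at 22.1 RPKM in the mutant and 20.6 RPKM in wild-type. The counts of this pair add up to 656 in the mutant and 490 in wild-type, again whole numbers. Their sum was 1.30-fold higher (1.16 to 1.47). LOC_Os08g25900 also gives whole sums with LOC_Os01g43070 of the PsbP family, so it is not shown which loci share reads.

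The remaining PsbP family loci lay between differences of -0.01 and 0.33, and each of their counting intervals included equal levels. LOC_Os08g40160 was the strongest of them, at 107 RPKM in the mutant and 99.9 RPKM in wild-type. LOC_Os04g35530, with 20 counts in the mutant and 16 in wild-type, was the weakest, and its interval of 0.599 to 2.51 does not exclude a 2-fold difference.

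The 9 loci of small PSII subunits gave values on both sides of equality. Their median difference was 0.11, with 6 above 0 and 3 below, but it was -0.07 over the 5 most abundant (RPKM of 100 or more). Their summed count in the mutant was 1.06 times that of wild-type (1.04 to 1.07), and 0.963 times without LOC_Os08g10020, so that the direction of the sum rested on this PsbR locus.

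PsbR, which in Arabidopsis helps to attach PsbP to PSII, had 3 loci. LOC_Os08g10020 had 40135 counts in the mutant and 36302 counts in wild-type, 1.08-fold higher (1.06 to 1.09). LOC_Os07g05360 was at 26.8 RPKM in the mutant and 23.5 RPKM in wild-type. Its neighbour in locus number, LOC_Os07g05365, had 8 counts in the mutant and 2 in wild-type, a ratio of 3.89 whose interval of 0.777 to 37.6 does not fix a direction.

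The lowest ratio of all 48 loci was that of the PSII 5 kD protein (LOC_Os02g37060), also called PsbTn, a small extrinsic subunit of the lumenal side. It was at 105 RPKM in the mutant and 144 RPKM in wild-type, 0.729 times the wild-type count (0.662 to 0.802). PsbX, a small membrane subunit beside the reaction centre, has 2 loci of similar level. LOC_Os03g22370 was at 161 RPKM in the mutant and 198 RPKM in wild-type (0.816 times, 0.753 to 0.883), whereas LOC_Os07g47640 was at 223 RPKM in the mutant and 235 RPKM in wild-type, with an interval that included equal levels (0.887 to 1.02).

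PsbY (LOC_Os08g02630, annotated as PSII BY) was at 148 RPKM in the mutant and 131 RPKM in wild-type, 1.12-fold higher (1.05 to 1.20). PsbW, which in Arabidopsis stabilizes the supercomplex of PSII with its antenna, again has a strong and a weak locus. LOC_Os01g56680 was at 85.3 RPKM in the mutant and 83.6 RPKM in wild-type. LOC_Os05g43310 was at 29.8 RPKM in the mutant and 22.8 RPKM in wild-type, 1.31-fold higher (1.08 to 1.59), and both PsbW loci have divided reads.

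The 4 loci of PSII factors all have whole counts. Their summed count in the mutant was 0.911 times that of wild-type (0.860 to 0.965). Without PSB29, the locus with the most counts, it was 1.03 times, so the direction of the sum rested on that locus. PSB29 (LOC_Os07g37250), known in Arabidopsis as THYLAKOID FORMATION 1 and needed for normal thylakoid formation, was at 128 RPKM in the mutant and 147 RPKM in wild-type. Its ratio of 0.870 (0.813 to 0.931) was the only one of the 4 whose interval excluded equal levels. PSB28 (LOC_Os01g71190), an assembly factor of PSII in cyanobacteria, had 386 counts in the mutant and 344 in wild-type. The PSII family protein LOC_Os03g21560 had 174 counts in the mutant and 206 in wild-type, and the 11 kDa protein-related locus LOC_Os03g53640 had 102 counts in the mutant and 76 in wild-type.

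**Figure D2:**
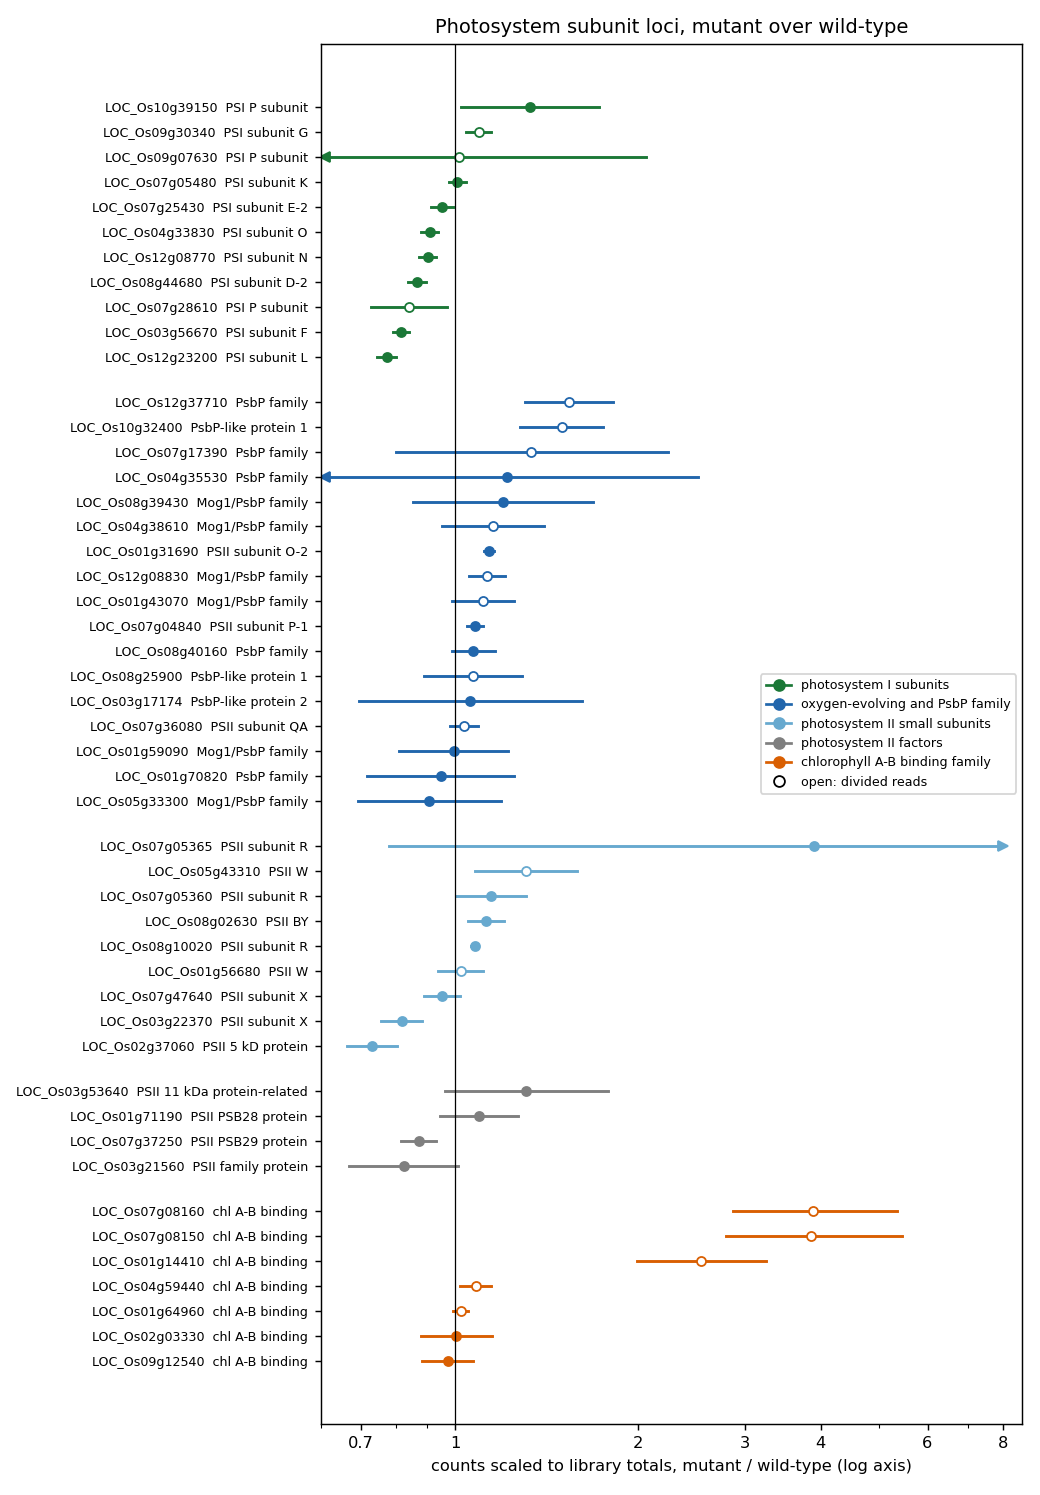
Ratio of the count in the mutant to that in wild-type, scaled to library totals (horizontal log axis), for each of the 48 photosystem subunit loci past the filter, with 95% Clopper-Pearson intervals as bars, grouped by role. Open points mark loci with divided reads and arrowheads mark intervals that run past the axis. Most PSI subunits lie left of 1, PsbO and PsbP lie right of it, and LOC_Os01g14410, LOC_Os07g08150 and LOC_Os07g08160 lie at ratios between 2.54 and 3.89.

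The 9 loci whose sole annotation was chlorophyll A-B binding family protein gave both ratios near 1 and the highest called differences of all 48 loci. This wording covers relatives of the antenna proteins, and in Arabidopsis it is shared by stress-induced members, which are thought to hold free chlorophyll and protect the thylakoid. The 3 photosystem loci that met the size rule were all of this family and all higher in the mutant. The pseudocounts and scaling factors tried could not have reversed this direction, so that it held is no check. At a pseudocount of 5 in place of 1, the differences were 1.42 at LOC_Os07g08160, 1.24 at LOC_Os07g08150 and 1.04 at LOC_Os01g14410. All 3 still met the size rule.

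LOC_Os07g08160 was at 26.7 RPKM in the mutant and 6.87 RPKM in wild-type, a difference of 1.82. LOC_Os07g08150, adjacent in locus number, was at 17.4 RPKM in the mutant and 4.50 RPKM in wild-type, a difference of 1.74. LOC_Os01g14410 was at 27.8 RPKM in the mutant and 10.9 RPKM in wild-type, a difference of 1.27. In count ratios these were 3.89-fold (2.87 to 5.35), 3.86-fold (2.79 to 5.44) and 2.54-fold higher (2.00 to 3.25).

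These loci are not separate results. Their counts are fractions, and together with those of LOC_Os02g16560 and LOC_Os03g30400 they give whole sums, 652 in the mutant and 198 in wild-type (tolerance 0.001). The 5 loci therefore appear to form a set among which reads were divided. As a set they were 3.21-fold higher in the mutant (2.73 to 3.78). The sum without LOC_Os01g14410, the locus with the most counts, was 3.82-fold higher. That value depends on how the reads were divided and is no separate check. How many of the reads were divided, and thus which of the loci carried the difference, cannot be read from the table. The last 2 loci had 1.98 and 0.90 counts in the mutant against 1.45 and 0.70 counts in wild-type, did not pass the filter, and allow no statement of their own.

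The deposited Gene Ontology terms are a feature that the selection did not use. A term for response to stress was listed at 7 of the 50 loci, and all 5 of the set were among them, along with PsbP and the 5 kD protein. A term for photosynthesis or a photosystem was listed at 40 of the 50 loci and at 0 of the 5. These terms do not separate the set, since the 5 kD protein, which had the lowest ratio of the 48 loci, also has the stress term without a photosynthesis term. The remaining loci without a photosynthesis term were LOC_Os04g38610 of the PsbP family and, within the chlorophyll A-B binding family, LOC_Os01g64960, LOC_Os02g03330 and LOC_Os04g59440.

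**Figure D3:**
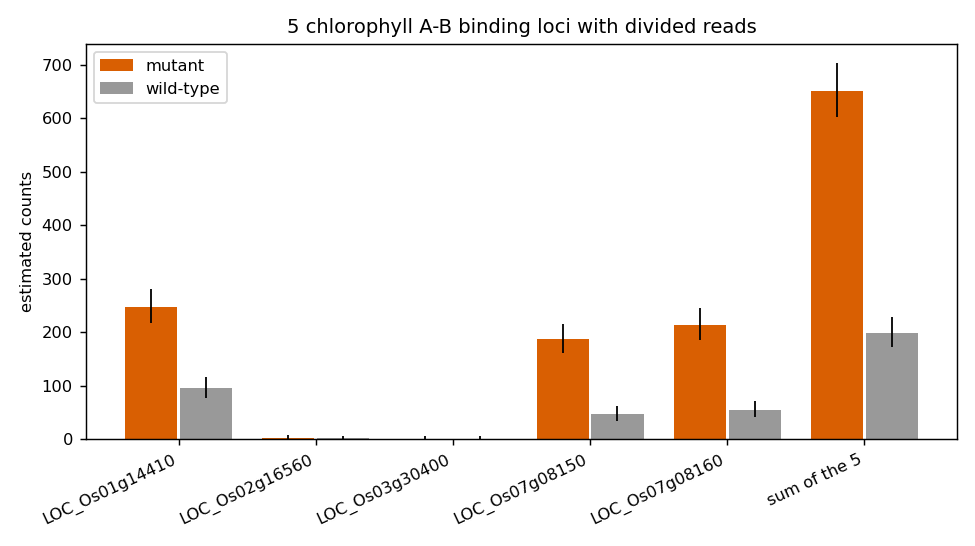
Estimated counts in the mutant (left bar of each pair) and in wild-type (right bar) of the 5 chlorophyll A-B binding loci whose fractional counts add up to whole numbers, and of their sum, with exact 95% Poisson intervals for counting error, taken after rounding to whole counts, as lines. The sum is 652 counts in the mutant and 198 in wild-type, and LOC_Os02g16560 and LOC_Os03g30400 contribute less than 2 counts each.

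The other 4 loci of the family had ratios between 0.971 and 1.08. LOC_Os01g64960 was at 701 RPKM in the mutant and 687 RPKM in wild-type, with an interval that included equal levels (0.991 to 1.05). LOC_Os04g59440 was at 225 RPKM in the mutant and 208 RPKM in wild-type, 1.08-fold higher (1.02 to 1.15), the only one of the 4 whose interval excluded equal levels. Both carry deposited terms for lipid binding and the thylakoid. Their counts add up to 11626 in the mutant and 10967 in wild-type, 1.03-fold higher (1.01 to 1.06). These are whole numbers, so both loci may share reads, and the interval of LOC_Os04g59440 alone may not be a separate result. LOC_Os09g12540 had 824 counts in the mutant and 826 in wild-type, and LOC_Os02g03330 had 453 counts in the mutant and 439 in wild-type. The summed count of the 4 loci in the mutant was 1.03 times that of wild-type (1.00 to 1.05), against 3.21 times for the set of 5.

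The counted shares of transcript models within a locus were much the same in both libraries. Of the 50 loci, 16 have more than 1 model in the table, and in 15 of these no model's share of the locus count differed by 2 percentage points or more between the libraries. The exception was LOC_Os07g28610, the PSI P subunit, whose model 3 held 36.2% of the locus count in the mutant and 40.4% in wild-type. How the counts of overlapping models were divided follows the authors' counting, which is not described in the sources used here. Many model counts are fractions, so reads common to several models appear to have been divided among them. Stable shares can follow from that division, so they are no measure of which models were used.

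A wider list made from annotation words for electron transport also had a median near equality. The words were photosynthetic electron transfer, plastocyanin, ferredoxin, PGR5, NDH, the gamma and delta subunits of the ATP synthase and the like. They gave 53 loci, of which 45 were past the filter. The list includes mitochondrial ferredoxins and nuclear copies of plastid genes, which the words do not separate. It also holds loci outside the light reactions, such as phytochromobilin synthase and a sucrase/ferredoxin-like protein. Its values are therefore those of the list and not of the light reactions alone. The 45 loci had a median difference of 0.02, with 25 above 0 and 20 below. Of these, 1 was past the size rule, higher in the mutant, with 0 lower. The Rieske protein of the cytochrome b6f complex (LOC_Os07g37030, photosynthetic electron transfer C) stood at 1735 RPKM in the mutant and 1758 RPKM in wild-type.

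Single loci on this list lay on both sides of equality. Plastocyanin (LOC_Os06g01210), the electron donor of PSI, was at 599 RPKM in the mutant and 688 RPKM in wild-type, and the most abundant ferredoxin-like locus (LOC_Os08g01380) was at 1005 RPKM in the mutant and 1208 RPKM in wild-type. The delta subunit locus LOC_Os06g50070 and the mitochondrial ferredoxin locus LOC_Os09g26650 had the lowest differences among those with an RPKM of 5 or more, each -0.27. The locus past the size rule was a ferredoxin 3 (LOC_Os01g64120) with whole counts, at 23.6 RPKM in the mutant and 7.89 RPKM in wild-type, 2.99-fold higher (2.27 to 3.99). NDH-dependent cyclic electron flow 5 (LOC_Os03g53710), a factor of the chloroplast NDH complex, followed with 5.26 RPKM in the mutant and 2.55 RPKM in wild-type.

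The selection left out the antenna loci. Those of PSII differed from the PSII subunits in their sums, whereas those of PSI were close to the PSI subunits. The 8 loci of the PSII antenna had 0.735 times the wild-type count in the mutant (0.727 to 0.743), and all 8 were below 0. The 30 loci of PSII subunits and factors described above had 1.08 times the wild-type count (1.07 to 1.09). Of their 92723 counts in the mutant, PsbR (LOC_Os08g10020) held 40135 and PsbO held 25430, so these loci largely set the value. Without that PsbR locus the small subunits had 0.963 times the wild-type count, and without PsbO the oxygen-evolving group had 1.09 times. The 6 loci of the PSI antenna had 0.904 times the wild-type count (0.895 to 0.914), close to the 0.895 times of the PSI subunits. The intervals of the PSII antenna and of the PSII subunits do not overlap, which again covers counting error in 1 library per genotype and is no test of the genotypes.

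**Figure D4:**
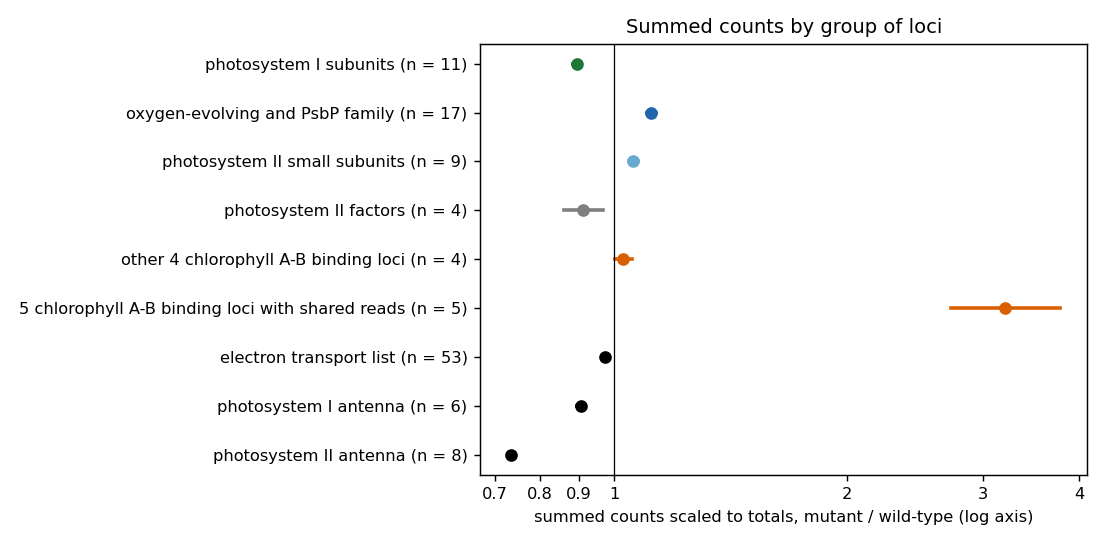
Summed counts in the mutant over those in wild-type, scaled to library totals (horizontal log axis), with 95% Clopper-Pearson intervals as bars, for the photosystem groups (coloured) and for the electron transport and antenna loci (black). Bars shorter than the points are hidden by them. The PSI subunits, the PSII factors, the electron transport list and both antenna groups lie left of 1, the oxygen-evolving group lies at 1.12 and the set of 5 chlorophyll A-B binding loci at 3.21. The side of the PSII factors rests on PSB29.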

How the data were processed

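Single-end reads were obtained on an Illumina HiSeq2500. Per the submitters' processing notes, TopHat, Cufflinks and Cuffdiff were used (versions and roles not stated), and the counting tool, build and annotation release are not given in the sources used here. The authors deposited estimated counts per transcript model, in part fractions, and RPKM values, each a count divided by model length and library total. A second table holds the authors' own comparison (fold change, P-value, FDR) and repeats 4 columns of values headed wlp1 and ZH11. None of it was used.

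Models were summed to loci. No reads carry molecular identifiers, so intervals cover counting error only. They were computed from beta quantiles with fractional counts kept. At 20 of the 50 loci the counts were fractions (39.0% of all loci past the filter). Named loci were, per role, the 4 with the highest mean RPKM and the 2 farthest from 0 each way at an RPKM of at least 5; others were chosen after their values were seen. Members and lists were chosen with earlier results of these data known. Alternatives covered pseudocount, filter, scaling (median ratio and the TMM factors of edgeR 4.0.16), unit of a gene, whole counts and threshold. Procedures were run on simulated Poisson counts without divided reads or variation between plants, so that run does not cover those limits. Python 3.11.15, numpy 2.4.6, pandas 2.3.3, scipy 1.17.1, matplotlib 3.10.9 and R 4.3.3 were used.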

Additional observations from a re-analysis of the deposited data

How the results depend on the processing

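No paired analysis was possible because each genotype has 1 library. The median difference of the photosystem loci ranged from -0.00 (whole counts) to 0.10 (median ratio scaling), and that of the electron transport list from -0.02 to 0.07, both near 0 throughout. The 3 loci past the size rule became 0 with whole counts, with an RPKM of at least 100 or without the 5 loci that share reads, since those settings drop them, and 6 at a threshold of 0.5. The number above 0 was 15 of 30 with whole counts and 11 of 21 with an RPKM of at least 100. The summed count in the mutant was 0.999 times that of wild-type with whole counts and 0.990 times without LOC_Os08g10020, so the side of 1 on which it lies is not stable. Under median ratio scaling 1 locus changed the sign of its difference and under TMM scaling 0 did. The settings with an RPKM of at least 100, without the 5 loci, and TMM scaling of sums were chosen after seeing the data. Depth limits the weaker loci: LOC_Os03g53640, with 102 counts in the mutant and 76 in wild-type, had a ratio of 1.31 whose counting interval of 0.961 to 1.78 included equal levels. With 1 library per genotype, variation between plants cannot be told apart from the genotype at any depth.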
